A study of Solanum lycopersicum with 12 samples.

Results

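The transcripts described here were raised in tomato seedlings 6 h after treatment with flg22, and less so or not at all at 24 h. A probe was included when the mean of its flg22 arrays exceeded the mean of the control arrays by at least 2 on the log2 scale at 6 h and by less than 1 at 24 h. Both flg22 arrays at 6 h also had to lie above both control arrays, as 13.7% of all probes did, and to be well above background by the flag of the scanner software. Probes of 3 sequence names were left out by the rule. This gave 60 of the 43603 probes of the array, which carry 53 of its 33703 sequence names. The flg22 and control arrays chose these probes, so their values in both treatments are given as a description, without a test.

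Each array measured RNA from a pool of 2 whole seedlings that were 15 days old, and each group had 2 arrays, called biological replicates by the study. The flg22 seedlings received the peptide at 1 µM for 6 or 24 h. The CFCF seedlings received the cell-free culture filtrate of Bacillus amyloliquefaciens MBI600 at 1 part in 5 by volume for 6 or 24 h. The control seedlings were collected at 6 and 24 h as well, and the sources differ on what they received: the sample labels call them untreated and describe them as kept in water, whereas the methods give LB with MS medium at the volume of the filtrate. All seedlings stood in liquid MS medium. No LB is described for the flg22 seedlings, so peptide and medium cannot be told apart in the comparison with control. Whole seedlings were used, and fewer cells of a type cannot be told apart from less RNA per cell.

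Flg22 is a conserved stretch of bacterial flagellin that plants perceive at the cell surface through the receptor kinase FLS2. Perception sets off a burst of signalling and a wave of transcription that is known to be partly short-lived. Among the known outputs in tomato are enzymes of oxylipin and jasmonate synthesis, proteins of the wound response and enzymes of specialised metabolism. Oxylipins are oxygenated fatty acids, and jasmonate is the member of this class that acts as a hormone of wounding and of defence against chewing insects.

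Of the 53 sequence names, 12 were paired with a gene of the RefSeq gene table, which accounted for 17 of the 60 probes. The other 43 probes, of 41 names, were not paired with a gene, and they are given by their probe identifiers. The 60 differences between flg22 and control at 6 h ran from 2.01 to 4.53 on the log2 scale with a median of 2.34, and 10 were at least 3. At 24 h the differences ran from -0.64 to 0.99 with a median of 0.42, beside a median of -0.01 over all probes. The difference at 24 h was above 0 for 50 of the 60 probes (48.8% of all probes were). Both flg22 arrays lay above both controls at 24 h for 39 probes (14.3% of all probes did so) and below both for 2 (16.5% of all). A median of 17.5% of the 6 h difference was present at 24 h, a share that the thresholds of the rule limit.

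**Figure D1:**
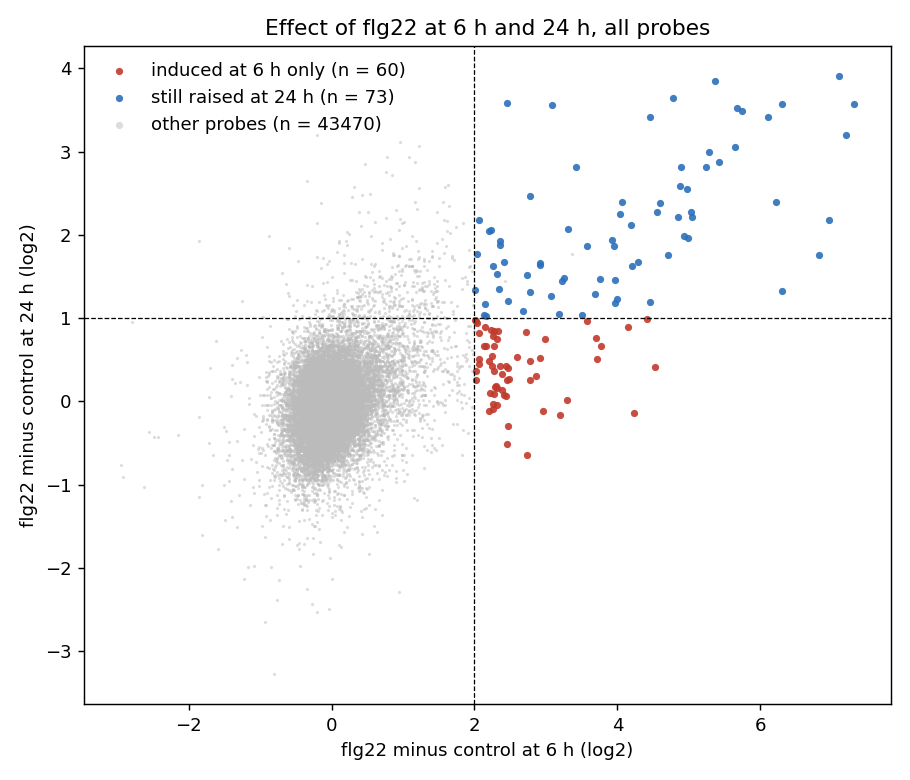
Difference between flg22 and control at 6 h (horizontal axis, log2) and at 24 h (vertical axis, log2) for every probe, each point being a probe. The 60 probes under 1 at 24 h, labelled as induced at 6 h only, are red. The 73 probes that met the 6 h condition and were still raised by at least 1 at 24 h are blue. Dashed lines mark 2 and 1, and no gap separates the red and the blue points.

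The thresholds cut through a continuous range. At the 6 h threshold the nearest probes inside had differences of 2.01 (A_96_P197984), 2.02 (BI-GST/GPX, A_96_P074162) and 2.02 (A_96_P002246). The nearest outside had 1.99, 1.99 and 1.98. At the 24 h threshold the nearest inside had 0.99 (LAPA1, A_96_P165811), 0.98 (A_96_P197984) and 0.97 (A_96_P093601), and the nearest outside had 1.02, 1.04 and 1.04. A further 73 probes met the 6 h condition and stayed at or above 1 at 24 h. Their median difference was 3.97 at 6 h and 1.96 at 24 h, so that a median of 52.4% of the 6 h difference was present at 24 h. For 22 of the 60 transient probes that percentage lay within the range of the 73 still raised probes (21.1 to 145%).

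The replicates at 6 h of flg22 were not equally high. Averaged over the 60 probes, the log2 value was 11.07 and 10.24 on the 2 flg22 arrays at 6 h, against 8.01 and 8.07 on the control arrays at 6 h. At 24 h the averages were 8.22 and 8.48 with flg22, against 7.91 and 8.0 in control. Replicate 1 of flg22 at 6 h exceeded replicate 2 for 52 of the 60 probes, by a median of 0.88, beside a median of -0.01 over all probes. The median SD of a probe between its 2 arrays was 0.69 with flg22 at 6 h and 0.26 in control at 6 h. Replicate 1 of this pair lay on slide 1, which held no control array of 6 h, and replicate 2 on slide 3. Within slide 3, the differences at 6 h ran from 1.22 to 4.48 with a median of 1.98, and 29 of 60 were at least 2. Within slides 1 and 2 the median difference at 24 h was 0.27 and 0.49. The red channel, for which no source used here names the RNA, averaged from 9.15 to 9.39 over the same probes on the 12 arrays. Its differences between flg22 and control at 6 h ran from -0.36 to 0.65.

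**Figure D2:**
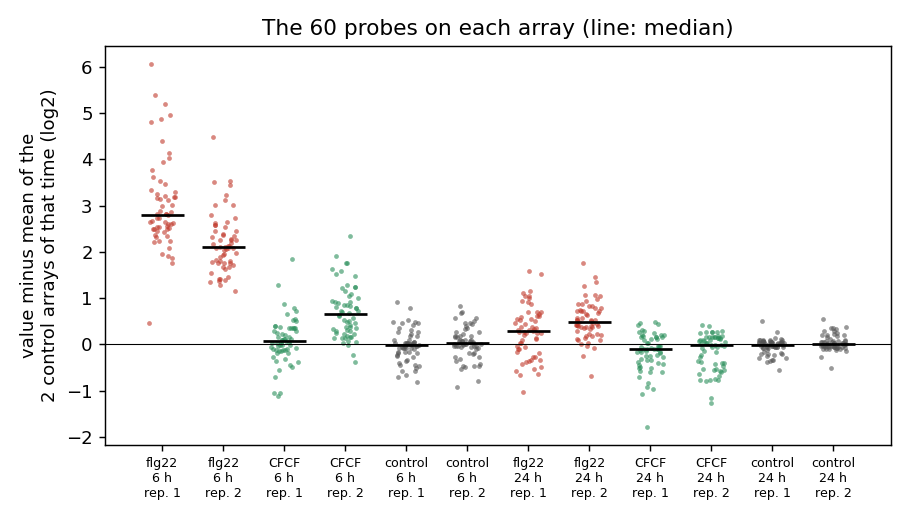
Value of each of the 60 probes on each of the 12 arrays, minus the mean of the 2 control arrays of the same time (vertical axis, log2), with the arrays grouped by time and treatment and a black line at the median. The flg22 arrays of 6 h lie highest, replicate 1 above replicate 2, and CFCF replicate 2 at 6 h lies above CFCF replicate 1 for 60 of the 60 probes.

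Markers of the labelled tissue were present on every array. The summed log2 level of 15 measured green shoot genes, of the small subunit of Rubisco and of chlorophyll-binding proteins among others, was 19.18 to 19.48 with flg22 at 6 h, against 19.33 to 19.62 in control at 6 h. At 24 h it was 19.80 to 20.07 with flg22, against 19.92 to 19.95 in control. The summed level of 9 measured root genes, chiefly transporters of nutrients, was 13.58 to 13.60 with flg22 at 6 h, against 12.61 to 13.79 in control at 6 h, so the groups overlapped. At 6 h of flg22, 3 of the 15 green shoot genes were above control (median difference -0.37), as were 6 of the 9 root genes (median 0.16). None of the 24 marker genes was called by limma at 6 or 24 h of flg22, beside 0.19% and 0.00229% of all probes. An unadjusted p under 0.05 was reached by 4 at 6 h (4.85% of all probes) and by 4 at 24 h (6.07% of all). The part of the marker genes in the differences of the 60 probes was not tested.

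The lipoxygenase gene LOX1.1, known as loxA in tomato, had the largest difference of a named gene whose probes were all members. Lipoxygenases add oxygen to polyunsaturated fatty acids, the first step towards the oxylipins. On probe A_96_P012631 the log2 value was 14.57 and 13.14 with flg22 at 6 h, against 9.55 and 9.69 in control. The values at 24 h were 10.01 and 10.49 with flg22, against 10.41 and 10.37 in control. The flg22 arrays thus stood far above the controls at 6 h (a difference of 4.23, or 18.8-fold) and enclosed them at 24 h (a difference of -0.14). The other probes of the gene, A_96_P168704 and A_96_P161716, had differences of 3.20 and 2.26 at 6 h and of -0.16 and -0.03 at 24 h. All 3 probes of LOX1.1 therefore showed the same time course, with no part of the 6 h difference left at 24 h. Within slide 3, A_96_P012631 was 3.45 higher with flg22 at 6 h.

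AOC encodes allene oxide cyclase, an enzyme of jasmonate synthesis. Its probe A_96_P012851 read 13.29 and 12.38 with flg22 at 6 h, against 10.66 and 10.59 in control. By 24 h the readings were 9.93 and 10.76 with flg22, against 10.14 and 10.80 in control. The difference was 2.21 at 6 h (4.63-fold) and -0.12 at 24 h, where the groups overlapped. The other probe of AOC, A_96_P189059, fell short of the 6 h threshold with a difference of 1.29, and its difference at 24 h was -0.22. Both lipid enzymes were thus raised at 6 h and stood at or slightly below control at 24 h.

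**Figure D3:**
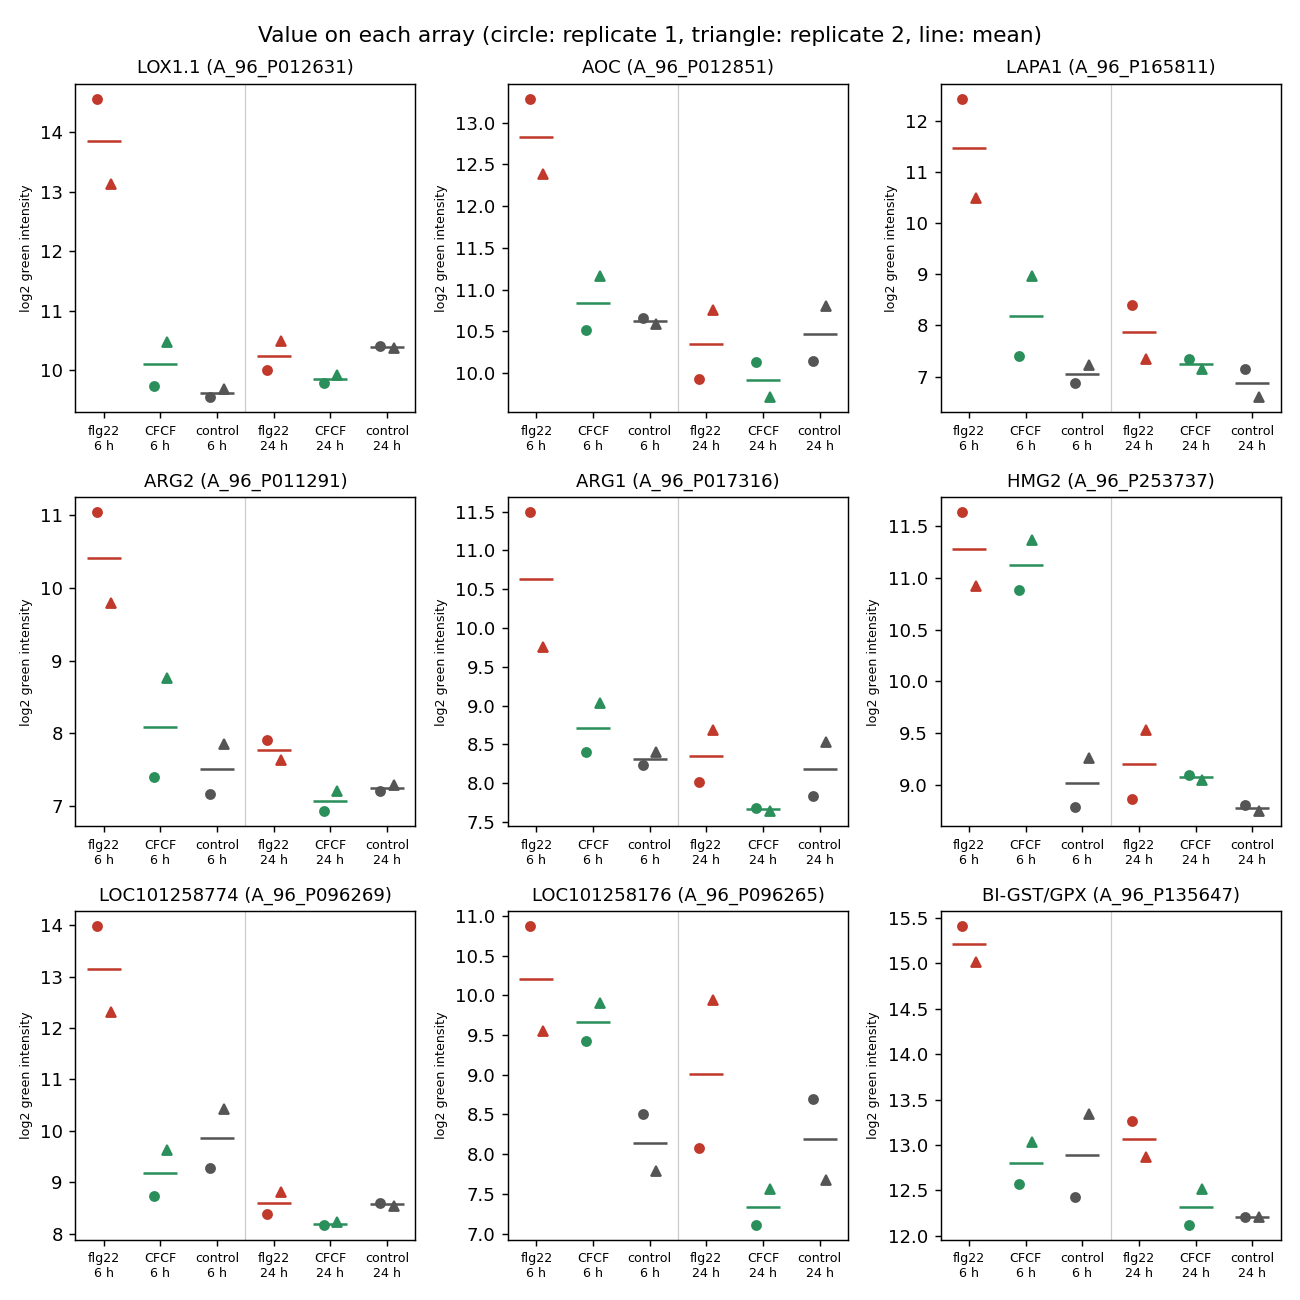
Log2 green intensity on each array (vertical axes, which differ between panels and do not start at 0) for a probe each of 9 named genes, with circles for replicate 1, triangles for replicate 2 and lines for the group mean. In LOX1.1, AOC, ARG1, LOC101258774 and LOC101258176 the flg22 arrays of 24 h overlap the control arrays. In HMG2 the CFCF arrays of 6 h (10.88 and 11.36) stand with the flg22 arrays of 6 h (11.63 and 10.92).

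The arginase genes ARG1 and ARG2 were both represented. Arginase splits arginine into ornithine and urea, and ARG2 is known from tomato leaves as an enzyme induced by wounding and jasmonate. ARG2 (A_96_P011291) read 11.04 and 9.79 with flg22 at 6 h, against 7.17 and 7.85 in control. At 24 h it read 7.91 and 7.63 with flg22, against 7.21 and 7.29 in control. Its difference was 2.91 at 6 h (7.49-fold) and 0.52 at 24 h, and both flg22 arrays still lay above both controls. ARG1 (A_96_P017316) read 11.49 and 9.76 with flg22 at 6 h, against 8.23 and 8.40 in control, a difference of 2.31. At 24 h its arrays overlapped, with a difference of 0.16. The genes neighbour each other in the gene table, and they are close relatives, so a probe of one may also bind the transcript of the other. The second probe of ARG1, A_96_P177959, had a difference of 0.03 at 6 h and -0.11 at 24 h. That probe was well above background on 1 of the 2 control arrays of 6 h, and it read 6.39 and 6.28 with flg22 at 6 h, against 6.38 and 6.23 in control. Whether its dimness accounts for the disagreement between the ARG1 probes was not tested.

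LAPA1 encodes the acidic leucine aminopeptidase A of tomato, an enzyme of the late wound response. Probe A_96_P165811 read 12.43 and 10.49 with flg22 at 6 h, against 6.87 and 7.22 in control. The 24 h arrays read 8.39 and 7.34 with flg22, against 7.15 and 6.60 in control. The difference was 4.42 at 6 h (21.4-fold) and 0.99 at 24 h, at the edge of the rule. Probe A_96_P165596 had differences of 3.77 at 6 h and 0.67 at 24 h. Both flg22 arrays lay above both controls at 24 h on each of these probes, which were still partly raised. The other probes of LAPA1 were not members. A_96_P165006 had differences of 1.15 at 6 h and 0.10 at 24 h, and A_96_P192049 had 6.30 and 3.57. With the processed signal of the scanner software in place of the deposited values, the member probes stood at 1.62 and 1.30 at 24 h and did not meet the 24 h condition.

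The cathepsin D inhibitor gene cathDInh encodes a protein that blocks proteases. Its member probe A_96_P264952 read 8.98 and 7.38 with flg22 at 6 h, against 5.89 and 6.05 in control. Neither control array was well above background, and the rise at 6 h was at least 4.58-fold. At 24 h the values were 6.18 and 6.66 with flg22, against 5.99 and 5.89 in control, and the difference of 0.48 became 2.95 with the processed signal. Prg1 (A_96_P117212) behaved alike in this respect. It read 8.56 and 8.41 with flg22 at 6 h, against 6.16 and 6.29 in control, at least a 4.79-fold rise. Its difference at 24 h was 0.78 in the deposited values and 3.58 with the processed signal. On both probes neither control array of 24 h was well above background, so the size of the processed differences is uncertain.

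The gene HMG2 encodes a 3-hydroxy-3-methylglutaryl-CoA reductase, which makes mevalonate for the isoprenoid pathway and is known in the Solanaceae for its induction in defence. Probe A_96_P253737 read 11.63 and 10.92 with flg22 at 6 h, against 8.79 and 9.26 in control. By 24 h they were 8.87 and 9.53 with flg22, against 8.81 and 8.75 in control. The difference was 2.25 at 6 h (4.75-fold) and 0.42 at 24 h. The other probe of HMG2, A_96_P206539, had a difference of 0.97 at 6 h and 0.21 at 24 h, in the same direction but short of the threshold.

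BI-GST/GPX encodes a glutathione S-transferase with glutathione peroxidase activity, an enzyme that conjugates or detoxifies oxidised compounds. Its probe A_96_P135647 read 15.41 and 15.02 with flg22 at 6 h, against 12.43 and 13.34 in control. The values of 24 h were 13.26 and 12.87 with flg22, against 12.21 and 12.21 in control. The difference was 2.33 at 6 h and 0.85 at 24 h, where both flg22 arrays remained above both controls. The second probe, A_96_P074162, had differences of 2.02 at 6 h and 0.25 at 24 h, and its arrays overlapped at 24 h.

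The remaining named genes carry only a locus number. LOC101258774 and LOC101258176 neighbour each other in the gene table. LOC101258774 (A_96_P096269) read 13.98 and 12.31 with flg22 at 6 h, against 9.28 and 10.43 in control, a difference of 3.29. At 24 h it read 8.39 and 8.80 with flg22, against 8.60 and 8.54 in control, a difference of 0.02. The second probe of this gene, A_96_P178934, fell short of the 6 h threshold with a difference of 1.59, and had -0.04 at 24 h. The neighbour LOC101258176 (A_96_P096265) read 10.87 and 9.55 with flg22 at 6 h, against 8.50 and 7.79 in control, a difference of 2.07. The 24 h values were 8.08 and 9.94 with flg22, against 8.70 and 7.68 in control. Replicates disagreed there: the difference at 24 h was -0.62 within slide 1 and 2.26 within slide 2. LOC544223 had 2 member probes, with differences of 2.60 and 2.29 at 6 h and of 0.53 and 0.17 at 24 h.

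Among the probes without a paired gene, A_96_P073484 had the largest difference of all 60 at 6 h. It read 13.29 and 10.24 with flg22 at 6 h, against 7.42 and 7.05 in control, a difference of 4.53 (23.1-fold). Its 24 h values were 7.71 and 8.03 with flg22, against 7.56 and 7.37 in control. Its flg22 replicates of 6 h stood far apart, yet both stood clear of the controls, and within slide 3 the difference was 3.19. The next, A_96_P195459, read 11.13 and 9.06 with flg22 at 6 h, against 5.94 and 5.95 in control, neither well above background, and its rise was at least 17.3-fold. At 24 h its difference was 0.89. Of the 60 probes, 8 were higher on replicate 2 of flg22 at 6 h than on replicate 1, of which 7 by 0.30 to 0.88. The other, A_96_P090404, chosen after its values were seen, was higher by 4.03. It read 7.87 and 11.90 with flg22 at 6 h, against 7.40 and 7.42 in control, so that nearly all of its rise came from replicate 2.

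Of the 60 probes, 9 were not well above background on either control array of 6 h, and their bounds ran from at least 4.21-fold to at least 17.3-fold at 6 h. The deposited values carry a constant added before the logarithm, which shrinks differences of dim spots. With the processed signal, 8 of these 9 probes stood at 1 or more at 24 h, and 22 of all 60 did. Those 22 probes met the 24 h condition in the deposited values but not with the processed signal. With the constant lowered to 16, 3 of the 9 probes and 9 of all 60 stood at 1 or more at 24 h. Without background subtraction, 3 of the 9 and 8 of all 60 did. The part of the constant in the change seen with the processed signal was not tested.

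Several sequence names were covered by more than 1 probe, and their probes did not always fall on the same side of the rule. Of the 53 names, 19 had more than 1 probe on the array. All probes were members for 5 of these names, and for 7 the other probes fell short at 6 h only. For the other 7 names, which held 8 of the 60 members, at least 1 probe was still raised at 24 h. For LAPA1, probe A_96_P192049 had differences of 6.30 at 6 h and 3.57 at 24 h. The second probe of cathDInh, A_96_P073229, had 4.99 and 1.96, and that of Prg1, A_96_P012966, had 4.19 and 2.12. The second probe of LOC101258176, A_96_P096259, had 2.68 at 6 h and 1.08 at 24 h. The sequence name of A_96_P195459 had 4 further probes, with differences from 6.22 to 7.31 at 6 h and from 2.40 to 3.91 at 24 h. For LAPA1, cathDInh, Prg1 and the name of A_96_P195459, the time course in the deposited values thus depended on the probe. With the processed signal, however, their member probes stood above 1 at 24 h as well. The differences were 1.62 and 1.30 for LAPA1, 2.95 for cathDInh, 3.58 for Prg1 and 4.62 for A_96_P195459. For cathDInh, Prg1 and A_96_P195459 neither control array of 24 h was well above background, so the size of these differences is uncertain. LOX1.1, BI-GST/GPX and LOC544223 had no probe outside the members.

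**Figure D4:**
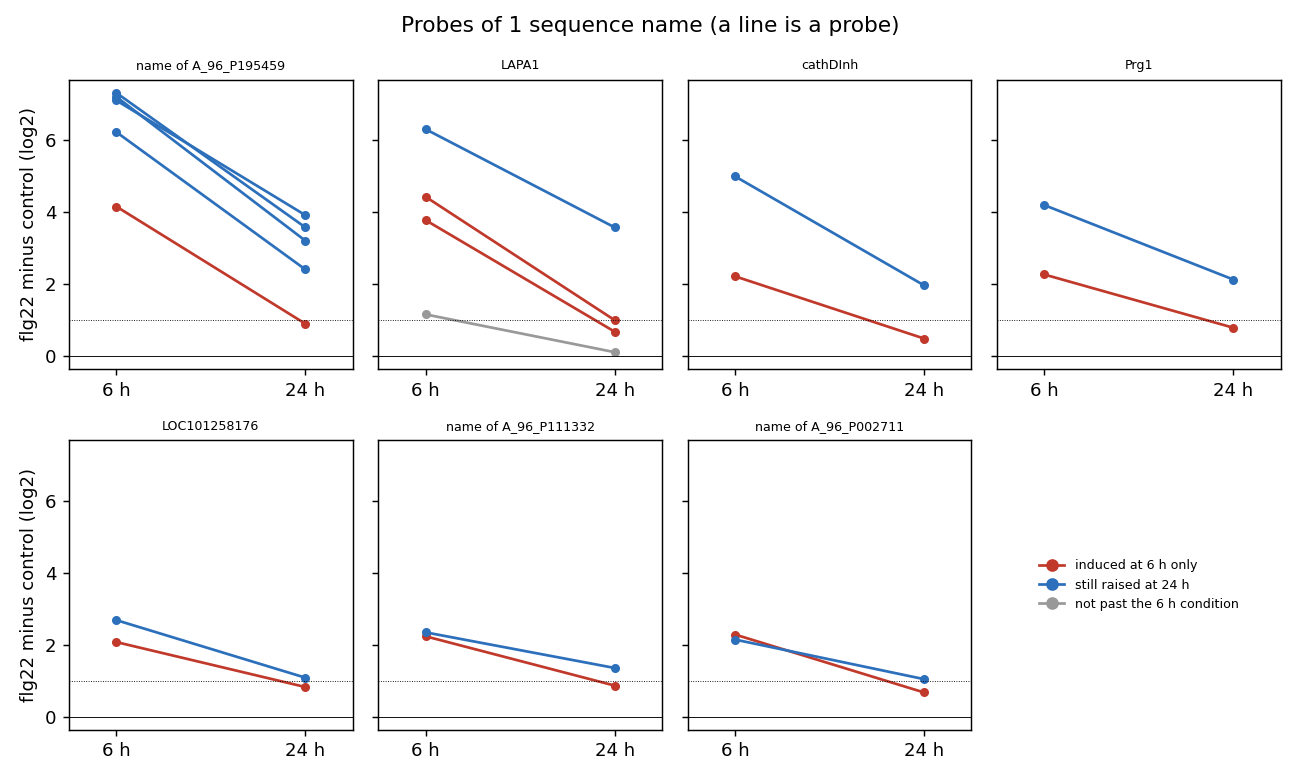
Difference between flg22 and control (vertical axis, log2) at 6 h and 24 h for every probe of the 7 sequence names that held both a member and a probe still raised at 24 h, a line being a probe. Red lines are members, blue lines are still raised probes and the grey line is a LAPA1 probe short of the 6 h condition; in the first 4 panels the blue lines end well above 1, marked by a dotted line.

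The other genes of the pathways were taken from lists of ethylene, jasmonate and wound, salicylate and PR protein, receptor, transcription factor, phenylpropanoid and amine, and heat shock genes. The call was made by limma and required both an adjusted p (Benjamini-Hochberg, over all probes) under 0.1 and a log2 difference of 2 or more in either direction. Beside the 5 listed genes that are members (LOX1.1, AOC, ARG1, ARG2 and LAPA1, each in the jasmonate and wound list), 144 listed genes were measured. At 24 h of flg22 none of these was called, beside 0.00229% of all probes. An unadjusted p under 0.05 was reached by 28 of them at 6 h (4.85% of all probes) and by 29 at 24 h (6.07% of all). At 6 h of flg22, 1 was called, beside 0.19% of all probes. This was CEVI57 of the phenylpropanoid and amine list, which rose by 5.28 ± 0.38 (SE, adjusted p = 0.00725). It read 12.90 and 13.53 with flg22 at 6 h, against 7.88 and 7.98 in control, and its difference at 24 h was 2.99. At 6 h an adjusted p under 0.1 alone, which 0.411% of all probes reached, was met by 2 more, both higher: JAZ2, a repressor of jasmonate responses (1.34, adjusted p = 0.0259), and JA2L, a transcription factor of the NAC family (0.79, adjusted p = 0.0738).

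The jasmonate and wound list is the only list that holds members, and it holds 5 of the 12 named member genes. Its 18 other genes had a median difference of 0.21 at 6 h and 0.27 at 24 h, beside -0.02 and -0.01 over all probes. Of the 18, 5 had a difference of at least 1 at 6 h. The following were picked after their values were seen. TD2, a threonine deaminase of the wound response, had 5.74 at 6 h (adjusted p = 0.198) and 3.49 at 24 h. OPR3, the reductase that follows AOC in jasmonate synthesis, had 1.05 (adjusted p = 0.125) and 0.34. AOS2, an allene oxide synthase, had 1.01 (adjusted p = 0.42) and -0.02, and loxD, the lipoxygenase of the jasmonate branch, had 1.30 (adjusted p = 0.594) and 1.18. The median differences at 6 h were 0.10 for 39 ethylene genes, 0.76 for 17 salicylate and PR protein genes, 0.03 for 25 receptor and early signalling genes, 0.30 for 14 transcription factors and 0.06 for 14 heat shock and general stress genes. None of these 5 lists held a called gene at 6 or 24 h of flg22, beside 0.19% and 0.00229% of all probes. Of their 109 genes, 17 at 6 h (4.85% of all probes) and 19 at 24 h (6.07% of all) had an unadjusted p under 0.05. At 6 h 1 gene, JA2L, passed the adjusted p alone (0.411% of all probes).

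The CFCF arrays were not used to choose the 60 probes, and their later time can be tested against their earlier time. Over the 60 probes, the median of CFCF at 24 h minus CFCF at 6 h was -0.59, beside a median of 0.00 over all probes, and 52 of the 60 were below 0 (50.1% of all probes were). No member was called by limma (adjusted p at least 0.17), beside 0.0115% of all probes. At an unadjusted p under 0.05, 10 members were lower at 24 h (6.91% of all probes were) and none was higher (6.24% of all). Both CFCF arrays of 24 h lay below both of 6 h for 42 members (26.1% of all) and above both for none (25.7% of all). For the 73 probes still raised by flg22 at 24 h the median was -1.13, with 55 below without overlap. In the control seedlings, 24 h minus 6 h had a median of -0.11 over the 60 probes, with 16 below without overlap (16.5% of all probes) and 8 above (16.1% of all). Over the 73 still raised probes it was -0.49, with 50 below. The change of CFCF beyond that of control was not tested. Within slide 3, which held a CFCF array of each time, the median over the 60 probes was -0.92 and 58 were below 0.

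Replicates at 6 h of CFCF disagreed over these probes. Replicate 2 was higher than replicate 1 for 60 of 60, by a median of 0.62, beside 0.00 over all probes. Without replicate 2 the median of 24 h minus 6 h was -0.24, and without replicate 1 it was -0.93. Averaged over the probes, the CFCF arrays had log2 values of 7.79 and 7.79 at 24 h, against 8.13 and 8.75 at 6 h.

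**Figure D5:**
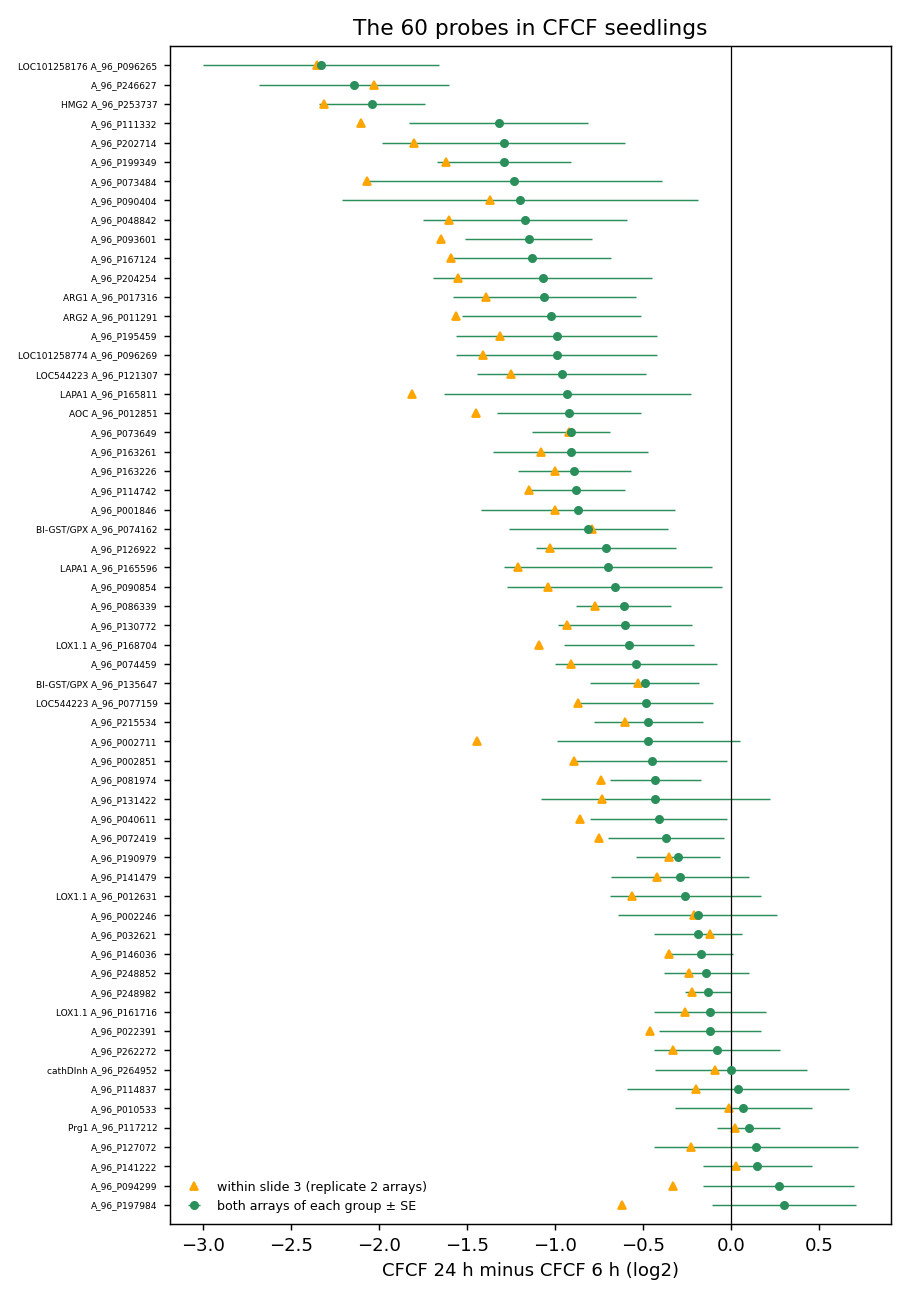
CFCF at 24 h minus CFCF at 6 h (horizontal axis, log2) for each of the 60 probes, sorted, with circles for the limma estimate from both arrays of each time, bars for its SE and triangles for the difference within slide 3. LOC101258176, A_96_P246627 and HMG2 have the lowest values (-2.33, -2.14 and -2.04), and 8 probes lie above 0.

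HMG2 had the smallest p of the 60 in this comparison. Its probe A_96_P253737 read 9.10 and 9.05 with CFCF at 24 h, against 10.88 and 11.36 with CFCF at 6 h. The difference was -2.04 ± 0.30 (SE, n = 2 per group) with an adjusted p of 0.17 by limma, and no value of one time lay among those of the other. The adjusted p ran from 0.0555 to 0.979 over its 16 alternatives, and HMG2 was called in 2 of them. The other probe of HMG2 (A_96_P206539) read 6.75 and 6.67 at 24 h, against 7.37 and 7.16 at 6 h, a difference of -0.56 ± 0.24 (SE, adjusted p = 0.379, limma).

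LOC101258176 (A_96_P096265) read 7.11 and 7.56 with CFCF at 24 h, against 9.43 and 9.90 with CFCF at 6 h, a difference of -2.33 ± 0.67 (SE, adjusted p = 0.346, limma). Its second probe, A_96_P096259, read 8.98 and 9.0 at 24 h, against 12.17 and 13.50 at 6 h, a difference of -3.85 ± 0.73 (SE, adjusted p = 0.21). The arrays of both times were separate on either probe. A_96_P246627 read 6.06 and 7.07 at 24 h, against 8.30 and 9.10 at 6 h, a difference of -2.14 ± 0.54 (SE, adjusted p = 0.317). Of the jasmonate and wound members, AOC read 10.13 and 9.71 at 24 h, against 10.52 and 11.16 at 6 h (difference -0.92 ± 0.41 SE, adjusted p = 0.382). ARG1 and ARG2 had differences of -1.06 ± 0.52 and -1.02 ± 0.51 (SE, adjusted p = 0.405 and 0.408), again without overlap. The member probes of LAPA1 had -0.93 ± 0.70 and -0.70 ± 0.59 (SE, adjusted p = 0.564 and 0.608). Its still raised probe, A_96_P192049, read 8.30 and 9.10 at 24 h, against 10.15 and 12.04 at 6 h, a difference of -2.39 ± 1.02 (SE, adjusted p = 0.374). LOX1.1 had -0.26 ± 0.43 on A_96_P012631 (SE, adjusted p = 0.823), where the arrays of both times overlapped.

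The flg22 and control arrays both served to choose the probes, so CFCF is set beside control as a description only. The median difference of the 60 probes between CFCF and control was 0.35 at 6 h and -0.05 at 24 h. That between flg22 and control, which the rule fixed to be at least 2 at 6 h and less than 1 at 24 h, was 2.34 and 0.42. Both CFCF arrays lay above both controls at 6 h for 23 probes (13.9% of all probes) and below both for none (15.6% of all). At 24 h they lay above for 16, or 26.7% of the members (24.2% of all), and below for 24, or 40.0% of the members (25.8% of all). The median at 24 h depended on the scaling, being 0.16 with the 75th percentile in place of quantile and 0.23 with the green to red ratio. For 8 of the 60 probes the CFCF arrays lay above both controls at 6 h and below both at 24 h (4.32% of all probes). The 6 h median was 0.66 without CFCF replicate 1 and 0.07 without CFCF replicate 2. Over the 73 probes still raised by flg22 at 24 h, the median of CFCF minus control was 1.04 at 6 h and 0.39 at 24 h. The highest of these 73 differences at 6 h was 3.26.

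HMG2 (A_96_P253737) stood out among the 60 probes with a difference between CFCF and control of 2.10 at 6 h, close to its 2.25 with flg22. It was the one probe of the 60 with a CFCF difference of at least 2, and it read 10.88 and 11.36 with CFCF at 6 h, against 8.79 and 9.26 in control. At 24 h it read 9.10 and 9.05 with CFCF, against 8.81 and 8.75 in control, a difference of 0.30. The other probe of HMG2, A_96_P206539, had differences of 0.81 at 6 h and 0.32 at 24 h. LOC101258176 (A_96_P096265) followed with 1.52 at 6 h and -0.86 at 24 h, and 5 of the 60 were at least 1 at 6 h. LOX1.1 (A_96_P012631) had a difference of 0.49 between CFCF and control at 6 h, with 9.74 and 10.48 with CFCF, against 9.55 and 9.69 in control. LOC101258774 (A_96_P096269) lay at -0.67, with 8.74 and 9.63 with CFCF, against 9.28 and 10.43 in control, so the arrays overlapped. Its second probe, A_96_P178934, lay at -0.14.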

How the data were processed

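RNA from 12 pools of tomato seedlings was hybridised to Agilent tomato arrays on 3 slides of 4 arrays. The scans deposited by the authors hold median intensities of the green and red channels from Agilent Feature Extraction 10.7.3.1, with flags. The authors also deposited a table of log2 values: green median intensity, corrected by normexp with an offset of 50, then quantile normalized. Rebuilt from the scans, these values differed by at most 5e-09. Of the other deposited values, the processed intensity and the red channel served as alternatives. Control spots were left out, and 43803 spots were averaged to 43603 probes. A probe of a name was never set in level against another.

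For the tests, outlier spots (1 to 5 per array) were set to missing and a mean per group was fitted over all 12 arrays with limma 3.58.1 under R 4.3.3, and p-values were adjusted across all probes (Benjamini-Hochberg). A call needed an adjusted p under 0.1 and a log2 change of 2 or more in size. The fit was tested on simulated data. Where both control arrays of a probe were not well above background, a fold is a lower bound, taken per control array against the higher of its own value and the lowest signal well above background. Between 69.8% and 81.7% of spots were well above background on each array, and 2 arrays per group limit the precision. No sample was dropped, and no source says whether same-numbered replicates share an experiment.

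The members, the pathway lists and the tests were chosen with earlier results of these data known, so none is independent of them. Genes were named through the RefSeq gene table of SLM_r2.1 (names and neighbours only), which matched 4884 probes to 2232 genes. Named are all members with a paired gene, the 2 unpaired with the largest 6 h difference, those nearest the thresholds and called genes of the lists. For each listed gene the probe of highest mean signal was used. Alternatives were the processed signal scaled to the 75th percentile, no background subtraction, offset 16, the 75th percentile in place of quantile, the green to red ratio, outlier spots kept, a filter on dim probes, slide or replicate number as a term, 1 probe per name, other fits and each array left out.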

Additional observations from a re-analysis of the deposited data

Results flagged for a closer look

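For 8 of the 60 probes, both CFCF arrays lay above both controls at 6 h and below both at 24 h (4.32% of all probes did so). The difference between the times was not tested as such, and the control arrays also served to choose the probes. Differences between CFCF and control were, at 6 h and then at 24 h, 1.52 and -0.86 for LOC101258176 (A_96_P096265), 0.49 and -0.54 for LOX1.1 on A_96_P012631, 0.49 and -0.51 for LOX1.1 on A_96_P168704, and 0.40 and -0.53 for ARG1. They were 1.13 and -0.32 for A_96_P073484, 0.90 and -0.33 for A_96_P001846, 0.77 and -0.59 for A_96_P204254 and 0.37 and -0.02 for A_96_P141479, which was not well above background on any CFCF or control array of 24 h. Other probes of these genes differed in size. The remaining LOX1.1 probe, A_96_P161716, had 0.20, with overlap, and -0.13. The other ARG1 probe, A_96_P177959, had 0.08 and -0.18, and the other LOC101258176 probe, A_96_P096259, had 1.90 and -1.63. Groups of 2 arrays allow no test for an outlying array.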

How the results depend on the processing

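The number of transient probes was 60. It was 175 with the processed signal (38 of the 60 among them), and with 1 array left out it ran from 45 to 100, with 98 without flg22 6 h replicate 2 and 100 without control 6 h replicate 2; under the other alternatives it stayed within 1.5 times. Membership changed more than the count: of the 60, 39 remained with the green to red ratio, 51 with offset 16 and 52 without background subtraction. Without flg22 6 h replicate 1, 36 of the 60 remained. The processed signal adds no constant before the logarithm, lacks the normexp correction and is scaled differently. Offset 16 gave 84 probes. Which of these differences changed the count, and the causes of the other changes, were not tested.

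No member was called between CFCF 24 h and 6 h. In the trended, robust fit 1 was called (HMG2, adjusted p = 0.0654, beside 31 of all probes). With 1 array left out the count ran from 0 to 3, the highest without CFCF 6 h replicate 1 (HMG2, A_96_P111332 and A_96_P246627, beside 303 of all probes), where the lone array is assumed to vary like the other groups. The median of 24 h minus 6 h kept its sign in all 14 alternatives.

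The median of CFCF minus control at 24 h (-0.05) was 0.16 with the 75th percentile in place of quantile, 0.23 with the green to red ratio and -0.19 with probes well above background. At 6 h it stayed between 0.07 and 0.66.

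The count of 1 listed gene called at 6 h of flg22 was 0 with the groups compared fitted alone, 2 with the processed signal (with JAZ2), and 2 with offset 16, the 75th percentile, the ratio, the filter on dim probes or the trended, robust fit. It was 3 at an adjusted p alone and ran from 1 to 3 with an array left out, the highest without control 6 h replicate 2, when loxD and CHI14 joined CEVI57.

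Same-numbered arrays deviated together in some pairs of groups and apart in others (r from -0.512 to 0.665), so the numbers are not taken to pair the samples. With the replicate number as a block, the transient set had 60 probes, no member was called between the CFCF times, 1 listed gene was called, and the median of CFCF at 24 h minus 6 h was -0.59, as without it.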
